A study of Rattus norvegicus with 24 samples.

Results

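The genes described are receptors, junction proteins and a secreted protein of vascular endothelium, the cell layer that lines blood vessels and in the lung forms the capillary side of the gas-exchange barrier. They were taken as every probe of the lung and blood tables whose symbol, with a trailing _PREDICTED dropped, is one of 10 genes. Of these 10 genes, 7 had a probe, 1 each, among the 21685 symbols (21792 probes) of the array: Ednrb (EDNRB in the tables, probe ILMN_1360909), Ramp2 (RAMP2, ILMN_1362437), Tek (TEK, ILMN_1370024), Tie1 (ILMN_1357525), Cdh5 (CDH5_PREDICTED, ILMN_1359811), Cldn5 (CLDN5, ILMN_1352195) and Vwf (VWF, ILMN_1352807). Kdr, Pecam1 and Eng are not analysed here. The bead numbers behind Tie1 are not all whole, and the tables do not say if they average more than 1 bead type.

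RNA was measured on Illumina BeadChips in lung and in globin-depleted blood of 12 male CDF Fisher 344 rats, labelled as 3 months old with no statement of when. In the silica groups, 6 rats inhaled crystalline silica, a respirable mineral dust, at 15 mg/m3 for 6 hours a day on 5 days. In the air groups, 6 rats inhaled air. The animals of both exposures were killed 32 weeks after exposure ended, and each gave 1 lung and 1 blood array, 24 arrays in 4 groups of 6. The lung and blood arrays of a rat carry the same rat number, whereas the blood extraction protocol is the one given beside both tissues.

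Ednrb is the B-type receptor for endothelin, and in the lung it takes endothelin out of the circulation. Ramp2 is the partner protein that turns the receptor Calcrl into a receptor for adrenomedullin, a peptide that tightens the endothelial barrier. Tek is the receptor kinase for the angiopoietins, which hold vessels quiescent, and Tie1 is its related partner. Cdh5 (VE-cadherin) and Cldn5 (claudin-5) close the contacts between endothelial cells in adherens and tight junctions respectively. Vwf, von Willebrand factor, is stored by endothelium and by platelets and tethers platelets to injured vessel walls.

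RefSeq promoters of assembly GRCr8, each running from 250 bases before to 50 after the annotated start, were at hand for 3 of the 7 genes. They are shown because these genes belong to one cell type and were read together, and because the core motif of ETS transcription factors, common in endothelial promoters, can be seen in them. Capitals mark GGAA on either strand, which appears as TTCC when it lies on the opposite strand.
Ednrb, chr15:87086716-87087015, minus strand: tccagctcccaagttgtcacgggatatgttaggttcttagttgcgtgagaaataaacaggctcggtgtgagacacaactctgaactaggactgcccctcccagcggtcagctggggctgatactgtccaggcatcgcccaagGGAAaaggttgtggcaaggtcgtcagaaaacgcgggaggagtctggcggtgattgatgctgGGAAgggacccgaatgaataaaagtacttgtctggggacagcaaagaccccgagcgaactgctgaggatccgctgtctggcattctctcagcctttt
Tie1, chr5:137304932-137305231, minus strand: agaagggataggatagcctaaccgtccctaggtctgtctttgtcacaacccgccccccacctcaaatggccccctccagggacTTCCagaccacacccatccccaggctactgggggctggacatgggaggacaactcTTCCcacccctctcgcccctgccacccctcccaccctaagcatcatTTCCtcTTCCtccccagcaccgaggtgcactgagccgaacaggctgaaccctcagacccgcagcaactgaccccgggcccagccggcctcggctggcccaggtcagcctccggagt
Cldn5, chr11:95718549-95718848, minus strand: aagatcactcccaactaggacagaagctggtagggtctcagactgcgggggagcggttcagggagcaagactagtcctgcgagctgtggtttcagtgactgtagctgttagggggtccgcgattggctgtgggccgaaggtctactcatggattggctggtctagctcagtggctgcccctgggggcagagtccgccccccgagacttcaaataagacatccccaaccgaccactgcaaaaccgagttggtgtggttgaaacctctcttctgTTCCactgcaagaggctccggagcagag
The Ednrb window held 2 such matches, the Tie1 window 4 and the Cldn5 window 1. Of 33469 promoters of the same length, 95.8% held at least 1, 84.5% at least 2 and 46.8% at least 4, so matches in these numbers are common. The letters CACCC on either strand, the core read by Klf factors, occurred 4 times in Tie1 and 0 times in Ednrb and Cldn5, where 54.9% of all promoters held at least 1 and 3.07% at least 4. Neither the Sox core ACAAT, which 33.7% of promoters held on either strand, nor the Gata core AGATAA, held by 11.6%, occurred in any of the 3 windows. No match of one of these 4 motifs overlapped a match of another. Such matches describe letters and are no binding sites.

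Detected probes numbered 11013 to 11733 on lung arrays and 7498 to 8469 on blood arrays. The lung arrays carried lung markers: of 10 listed genes of alveolar type 2 cells, 9 were tested in lung and 2 in blood (Napsa and Lpcat1). Summed signals were 51558 to 66921 over the 9 in lung and 1175 to 2926 over the 2 in blood. The tissues were normalized apart, so these sums do not compare levels. All 10 general leukocyte genes were tested in both tissues, so their detection does not tell the tissues apart. In blood, air replicate 2, silica replicate 6 and air replicate 6 stood apart on the first principal component (18.6, 13.5 and 9.35, against -6.12 to -0.88 for the other arrays). Bead-to-bead standard errors of the 7 genes were at most 5.29% of the signal in lung and 6.26% in blood. In lung they were below the spread of raw signals between air rats, whose SD was 6.47% to 14.0% of the mean. Those SDs were taken before normalization, whereas the tests used normalized values. After normalization Ramp2 in air lungs had an SD of 0.05 on the log2 scale, beside bead standard errors of up to 4.04% of the signal. Bead error was thus not clearly below the spread between rats for every gene in lung. In blood, Tek after air had an SD between rats of 2.17 in raw signal, beside bead standard errors of 1.69 to 3.10. Tek was not detected on any blood array, so these are values at background.

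In the lung, 6 of the 7 genes were lower after silica than after air, and none was higher. The 6 were Ednrb, Ramp2, Tek, Tie1, Cdh5 and Vwf, by 1.11-fold to 1.43-fold (limma, Benjamini-Hochberg adjusted p under 0.05 over the 11285 probes tested). Cldn5 was the gene that did not pass. Of all probes tested, 16.1% were called at this threshold, 8.53% lower (963 probes) and 7.59% higher (857), with 537 called (311 higher, 226 lower) when arrays were scaled to one median. The median log2 fold change of the 7 genes was -0.34, beside -0.01 for all probes. The ranges of the 2 groups did not overlap for 5 of the 7 genes, with silica below air in each, which held for 3.81% of all probes tested (8.11% in either direction). Since the 7 genes were chosen with earlier results of these data known, the shares beside them are a description and no test. Whole-lung values are relative after normalization, so fewer endothelial cells, less RNA per cell and a larger share of other cells cannot be told apart.

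**Figure D1:**
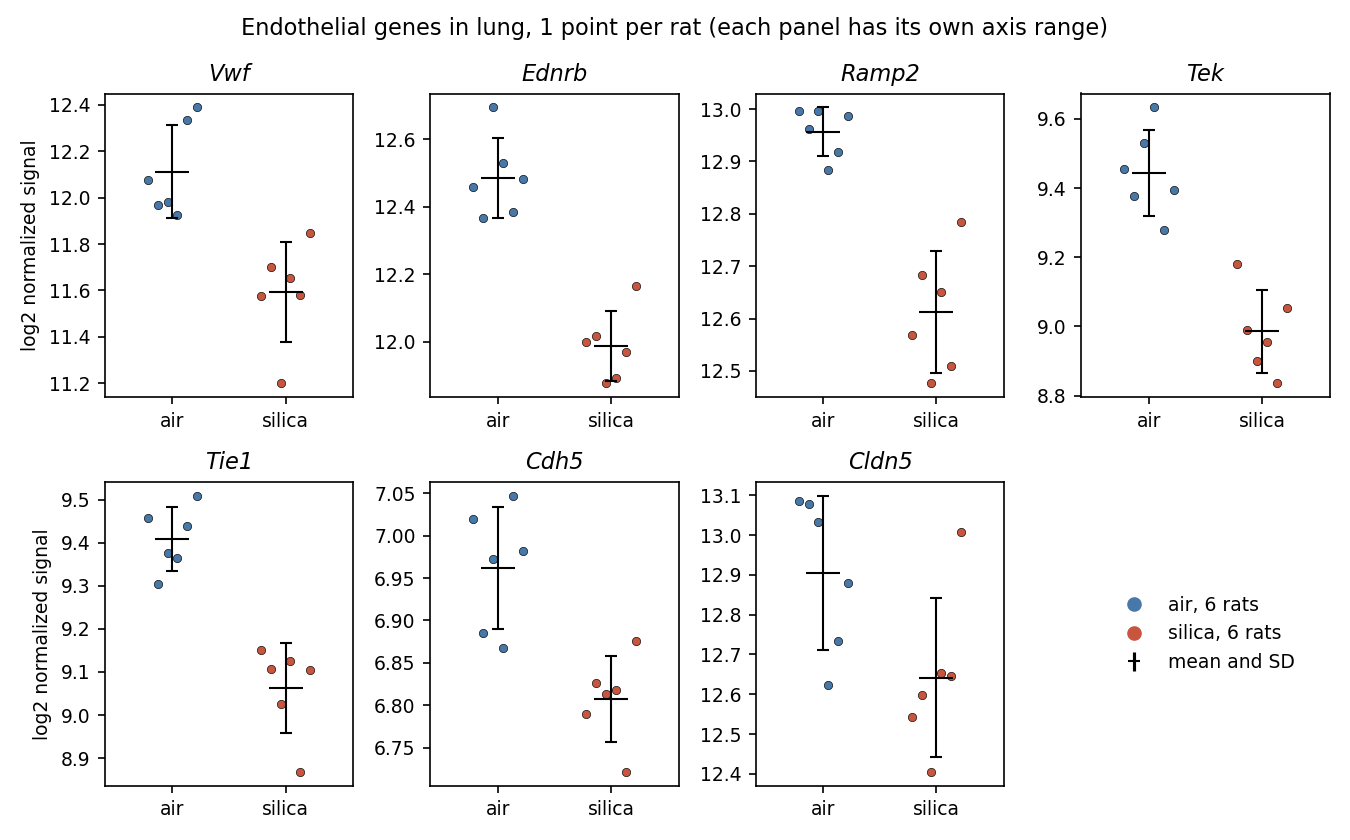
Log2 normalized signal (vertical axis, a separate range in each panel) of the 7 genes in lung, with 1 point per rat, 6 rats after air and 6 after silica, and the group mean with its SD. Ednrb, Ramp2, Tek, Tie1 and Vwf show no overlap between the groups, whereas Cdh5 and Cldn5 do.

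Among the receptors, Ednrb lay between 12.37 and 12.69 (median 12.47) in lungs after air and between 11.88 and 12.17 (median 11.99) after silica, in log2 normalized signal. Every silica lung was below every air lung. The group means were 12.49 ± 0.12 and 11.99 ± 0.10 (SD, n = 6 each), a log2 fold change of -0.50 ± 0.06 (SE) or 1.41-fold lower, with a limma adjusted p of 0.000634. Of the 11285 probes, Ednrb ranked 68 by p.

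Ramp2 ranged from 12.88 to 12.995 (median 12.97) after air and from 12.48 to 12.78 (median 12.61) after silica. The air rats lay close together, with an SD of 0.05 against 0.12 among the silica rats, and the groups did not overlap. The log2 fold change was -0.34 ± 0.05, or 1.27-fold lower (limma adjusted p 0.00113).

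The angiopoietin receptor Tek lay between 9.28 and 9.63 (median 9.42) after air and between 8.84 and 9.18 (median 8.97) after silica. Its groups did not overlap, though silica replicate 1 came close to the lowest air rat. The difference was -0.46 ± 0.07 on the log2 scale, 1.37-fold lower (limma adjusted p 0.0013). For its partner Tie1, lungs after air gave 9.30 to 9.51 (median 9.41) and lungs after silica 8.87 to 9.15 (median 9.11). Silica replicate 5 was the lowest lung, and again no silica rat reached an air rat. Tie1 changed by -0.34 ± 0.05, 1.27-fold lower (limma adjusted p 0.00124).

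Of the junction genes, Cdh5 was dim on this array: its raw signal was 163 ± 16.5 after air and 135 ± 9.52 after silica (SD, n = 6 each). On the log2 scale it ran from 6.87 to 7.05 (median 6.98) after air and from 6.72 to 6.88 (median 6.82) after silica. One silica rat, replicate 6, exceeded the lowest air rat. The log2 fold change of -0.15 ± 0.03 (1.11-fold lower, limma adjusted p 0.0114) became -0.39 ± 0.09 (1.31-fold lower, adjusted p 0.00688) with a background estimated from median signals, an alternative chosen after the data were seen. It did not pass when arrays were scaled to one median (adjusted p 0.0515) or with the replicate number as a block (adjusted p 0.0620).

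Cldn5 spread more widely. Lungs after air gave 12.62 to 13.08 (median 12.96) and lungs after silica 12.40 to 13.01 (median 12.62). The highest silica lung, replicate 6, stood among the air lungs, and silica replicates 4 and 5, both at 12.65, were also above the lowest air lung. The log2 fold change was -0.26 ± 0.11 (95% interval -0.50 to -0.03), with a limma adjusted p of 0.122. Over the 12 fits that left out 1 rat it was -0.34 to -0.22, with an adjusted p of 0.0264 to 0.235. It passed in 1 of these fits, the one without silica replicate 6 (-0.34, adjusted p 0.0264), and did not pass in the other 11.

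The secreted protein gene Vwf showed the widest difference of group means, and also a wide spread. It lay between 11.93 and 12.39 (median 12.03) after air and between 11.20 and 11.85 (median 11.62) after silica. Silica replicate 3 was the lowest and silica replicate 6 the highest of its group, and all 6 were below the lowest air rat. The change was -0.52 ± 0.11 on the log2 scale, 1.43-fold lower (limma adjusted p 0.00956).

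**Figure D2:**
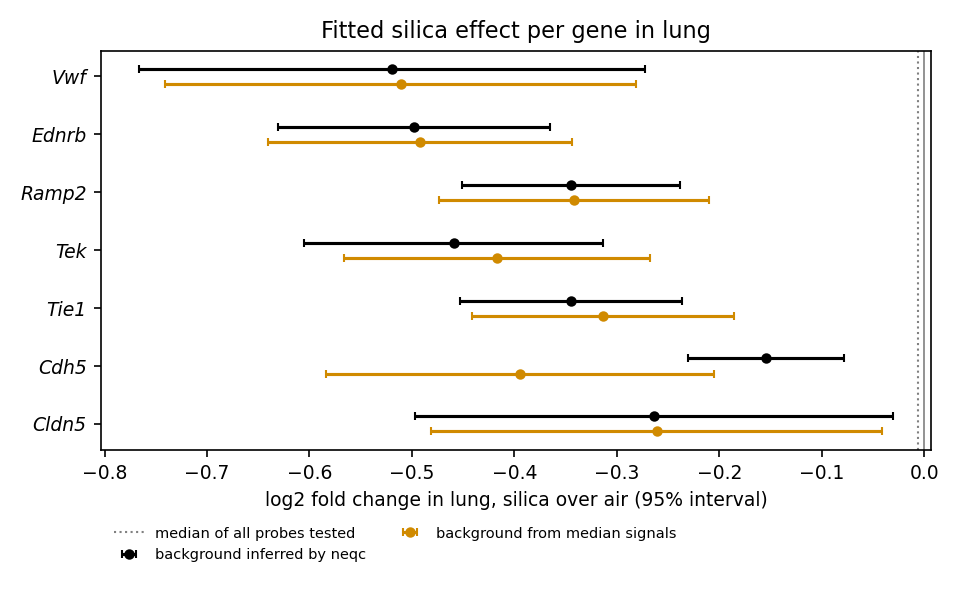
Log2 fold change in lung, silica over air (horizontal axis), with 95% intervals, for each of the 7 genes under both background models. The estimates are close for 6 genes and differ for Cdh5, -0.15 against -0.39.

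The effect sizes of the 7 genes were not separable from each other by their intervals, with 1 exception: the interval of Cdh5 (-0.23 to -0.08) lay above those of Ednrb, Ramp2, Tek, Tie1 and Vwf in the values as normalized here, and overlapped them with the background from median signals (-0.58 to -0.21). Silica rats differed in how far they lay below the air mean. Averaged over the 7 genes, air lungs deviated from the air mean by -0.06 to 0.05 on the log2 scale and silica lungs by -0.51 to -0.21. Silica replicates 3 and 5 were lowest, at -0.51 and -0.45, and silica replicate 6 was highest, at -0.21, with all 7 genes above the mean of its group. The first principal component of all probes tested in lung put the silica rats in the same order. It ran from 15.8 and 14.1 for replicates 3 and 5 to 4.22 for replicate 6. The order is therefore not particular to these genes. After the group means were taken off, the 21 pairs of genes had Pearson correlations of -0.17 to 0.78 over the 12 lungs, with a median of 0.35 and 19 above 0. Ramp2 with Cldn5 was the closest pair (0.78), and Tie1 with Cdh5 came next (0.68). These correlations share arrays and normalization and are given as a description.

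The probes outside the 7 genes whose lung values followed their mean most closely, over 12 arrays with group means taken off, were LOC499597 (Pearson r 0.95), Mrrf (0.93), Rasip1 (0.92), Notch1 (0.92) and Camk2g (0.91). Over all 11278 other probes the median r was 0.02 and the 95th percentile 0.60. Rasip1 is an endothelial protein needed for vessel lumens, and Notch1 a receptor that acts in arterial endothelium among other cells. Rasip1 fell by 0.34 ± 0.09 on the log2 scale after silica (limma adjusted p 0.0321) and Notch1 by 0.41 ± 0.12 (adjusted p 0.0379). LOC499597 (-0.27 ± 0.06, adjusted p 0.0117), Mrrf (-0.36 ± 0.07, adjusted p 0.00459) and Camk2g (-0.28 ± 0.08, adjusted p 0.0411) were lower as well. No endothelial role is claimed for them, so the probes that followed the mean are not an endothelial set.

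Genes that work with the measured receptors gave smaller shares, which is a description and no test. The measured genes and the lists were chosen with earlier results of these data known. Some list genes, such as Flt1 and Smad5 (mean 6.50 each in lung), lay near the floor, where values are compressed. Of 7 tested genes of the endothelin and adrenomedullin systems, 2 were lower and 5 did not pass (median log2 fold change -0.23). The A-type endothelin receptor Ednra fell by 0.46 ± 0.08 (1.37-fold lower, adjusted p 0.00409). Calcrl, the receptor that Ramp2 accompanies, was dim and fell by 0.10 ± 0.02 (adjusted p 0.00618), or by 0.36 (1.29-fold lower, adjusted p 0.00285) with the background from median signals. The ligands Edn1 (-0.28 ± 0.15, adjusted p 0.249) and Adm (-0.26 ± 0.08, adjusted p 0.0558) did not pass, and neither did Ramp3 (0.12 ± 0.06, adjusted p 0.170), an alternative partner of Calcrl.

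In the angiopoietin pathway, 2 of 4 tested genes were lower. They were the ligand Angpt1 (-0.16 ± 0.05, adjusted p 0.0473) and the phosphatase Ptprb, which acts on Tek (-0.48 ± 0.13, adjusted p 0.0295). The background from median signals put Angpt1 at -0.33, with an adjusted p of 0.0315, and the list's median at -0.29 in place of -0.11. The call of Angpt1 was kept only in lungs without air replicate 5, air replicate 6 or silica replicate 6. That of Ptprb was kept only in fits that left out one of air replicates 2, 4, 5 and silica replicates 5, 6. The antagonist ligand Angpt2 gave -0.06 ± 0.02 (adjusted p 0.0837).

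Of 9 tested VEGF ligands, receptors and co-receptors, 3 were lower and 6 did not pass (median -0.03). Plxnd1, a semaphorin receptor of endothelium, fell by 0.34 ± 0.07 (adjusted p 0.00881). The co-receptor Nrp1 fell by 0.36 ± 0.10 (adjusted p 0.0374), a call kept only in fits that left out one of air replicate 2 and silica replicates 1, 2. The ligand Vegfc fell by 0.21 ± 0.06 (adjusted p 0.0262), and its adjusted p was 0.0508 to 0.0541 without any one of air replicates 1, 2, 4 and silica replicate 4. Vegfa did not pass (-0.12 ± 0.09, adjusted p 0.479). With the background from median signals Vegfc had an adjusted p of 0.0572 and the list's median was -0.14. The list kept 1 call without air replicate 1, air replicate 4 or silica replicate 4.

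Endoglin, itself not analysed here, is a co-receptor in BMP signalling, and 3 of 11 tested genes of that pathway were lower (median -0.05, or -0.15 with the background from median signals). The kinase receptors Bmpr2 and Acvrl1 fell by 0.51 ± 0.09 (1.42-fold lower, adjusted p 0.00477) and 0.33 ± 0.08 (adjusted p 0.0209), and the inhibitory Smad7 by 0.24 ± 0.05 (adjusted p 0.00868). The target genes Id1 (-0.04 ± 0.08, adjusted p 0.827) and Id3 (-0.22 ± 0.10, adjusted p 0.145) did not pass. Among 4 tested partners of Vwf, 1 was lower, the platelet receptor subunit Gp1bb (-0.31 ± 0.10, adjusted p 0.0471), whose call was kept only in fits that left out one of air replicates 5, 6 and silica replicate 5.

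Beside Cdh5 and Cldn5, 20 other junction genes were tested, of which 10 were lower, 2 higher and 8 did not pass (median -0.18). Esam, an adhesion molecule of endothelial tight junctions, lay between 10.97 and 11.14 after air and between 10.53 and 10.81 after silica, without overlap, and fell by 0.39 ± 0.05 (1.31-fold lower, adjusted p 0.000746). The gap junction genes split. Gja4 (-0.38 ± 0.07, adjusted p 0.00542) and Gja5 (-0.37 ± 0.10, adjusted p 0.0259), connexins of arterial endothelium, were lower, and Gja1, a connexin of many cell types, rose by 0.51 ± 0.08 (1.42-fold, adjusted p 0.00159). The call of Gja5 was kept only in fits that left out one of air replicates 2, 6 and silica replicates 2, 5, 6, and without silica replicate 1 the list had 7 calls in place of 12. The 2 that were higher were Gja1 and Ctnnb1, named after its value was seen (0.23 ± 0.06, adjusted p 0.0332), the catenin that binds cadherins and also carries Wnt signals.

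Of 16 transcription factors of endothelium, 5 were lower and 11 did not pass (median -0.15). Epas1, a hypoxia-inducible factor, fell by 0.50 ± 0.11 (adjusted p 0.00965), Ets1 by 0.45 ± 0.10 (adjusted p 0.0101), Sox18 by 0.44 ± 0.12 (adjusted p 0.0317) and Tbx3 by 0.43 ± 0.11 (adjusted p 0.0182). The Sox18 call was kept only in fits that left out one of air replicates 4, 6 and silica replicates 4, 6. The other ETS factors tested, Fli1 (0.06 ± 0.10, adjusted p 0.768) and Erg (0.00 ± 0.01, adjusted p 0.978), did not pass, and Erg was dim.

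Among the endothelial lists, other endothelial markers had the highest share lower: 16 of 27 tested genes, with 0 higher, 11 not passing and a median of -0.34. Gpihbp1, which holds lipoprotein lipase on capillary endothelium, had a mean of 8.35 after air and 7.54 after silica and fell by 0.81 ± 0.14 (1.76-fold lower, adjusted p 0.00291). Aplnr, the apelin receptor, fell by 0.62 ± 0.07 (1.54-fold lower, adjusted p 0.000508), and its ligand Apln by 0.52 ± 0.09 (adjusted p 0.00312). Esm1, a secreted proteoglycan of angiogenic endothelium, fell by 0.70 ± 0.16 (adjusted p 0.0108). The summed linear signal of these 27 genes was 60172 to 64603 in air lungs and 45654 to 56442 in silica lungs, without overlap. Of 5 lymphatic endothelial genes, 1 was lower, Lyve1 (-0.47 ± 0.12, adjusted p 0.0221), whose adjusted p was 0.0506 without silica replicate 4. Lyve1 is in both lists and is already counted among the 16 lower genes above.

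Markers of other cells moved as well. Of 12 genes of alveolar type 1 cells, the flat epithelium that faces the capillaries, 8 were lower and 4 did not pass, and their summed signal was 31345 to 34119 after air and 26914 to 29147 after silica. Cav1 and Cav2, caveolar genes that endothelium also expresses, were among them (-0.38 and -0.45, adjusted p 0.00931 and 0.00174). This list kept 4 or 5 calls without any one of air replicates 1, 4, 5, 6 and silica replicates 1, 3, 5. Of 10 fibroblast genes, 4 were lower (median -0.23), among them Pdgfra (-0.39, adjusted p 0.00585), and of 9 pericyte and smooth muscle genes 2 were lower, Cspg4 and Abcc9 (-0.48 and -0.60, adjusted p 0.00579 and 0.00248). None of 4 cardiac muscle genes passed (Myl7 0.76, adjusted p 0.706), and their sums spanned 363 to 5803 after air and 372 to 4454 after silica. Of 5 platelet genes, 2 were lower in lung, Gp1bb and Clec1b (-0.17, adjusted p 0.0332). With the background from median signals 4 of the 5 were lower, with a median of -0.39 in place of -0.13 and Clec1b at -0.43 (adjusted p 0.0138). Their summed signal overlapped (2392 to 3464 after air, 2380 to 2990 after silica), and the list had 0 calls without any one of air replicates 2, 3, 4 and silica replicates 1, 3, 4, 6 and 1 call without any one of air replicate 1 and silica replicates 2, 5.

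In the opposite direction, 5 of 9 macrophage genes were higher, their sum rising from between 10950 and 16307 to between 19850 and 28178, with Chi3l1 2.54-fold higher (adjusted p 6.55e-05) and Cd68 1.72-fold (adjusted p 0.00102). Of 10 general leukocyte genes 5 were higher (3 without air replicate 5), with sums of 23454 to 26695 after air and 27446 to 30005 after silica. Of 9 monocyte and neutrophil genes 3 were higher (5 without silica replicate 2), with sums of 3498 to 4539 and 5127 to 7478. Of 9 alveolar type 2 genes 4 were higher (1 or 2 when air replicate 3, 4 or 5 or silica replicate 3 was left out), with sums of 51558 to 57161 and 55792 to 66921. The part of these cell markers in the lower endothelial signals was not tested. The background from median signals raised the list medians from 0.08 to 0.48 for macrophages and from 0.07 to 0.39 for monocytes and neutrophils, and left 6 of the alveolar type 1 genes lower. With arrays scaled to one median, no list had more calls than before and each call that was left kept its direction: 9 of the other endothelial markers, 4 lower and 1 higher among the other junction genes, 2 in the endothelin and adrenomedullin list, 1 each in the BMP, transcription factor, alveolar type 1 and pericyte lists, 4 macrophage and 3 monocyte and neutrophil genes, and 0 in the remaining lists.

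**Figure D3:**
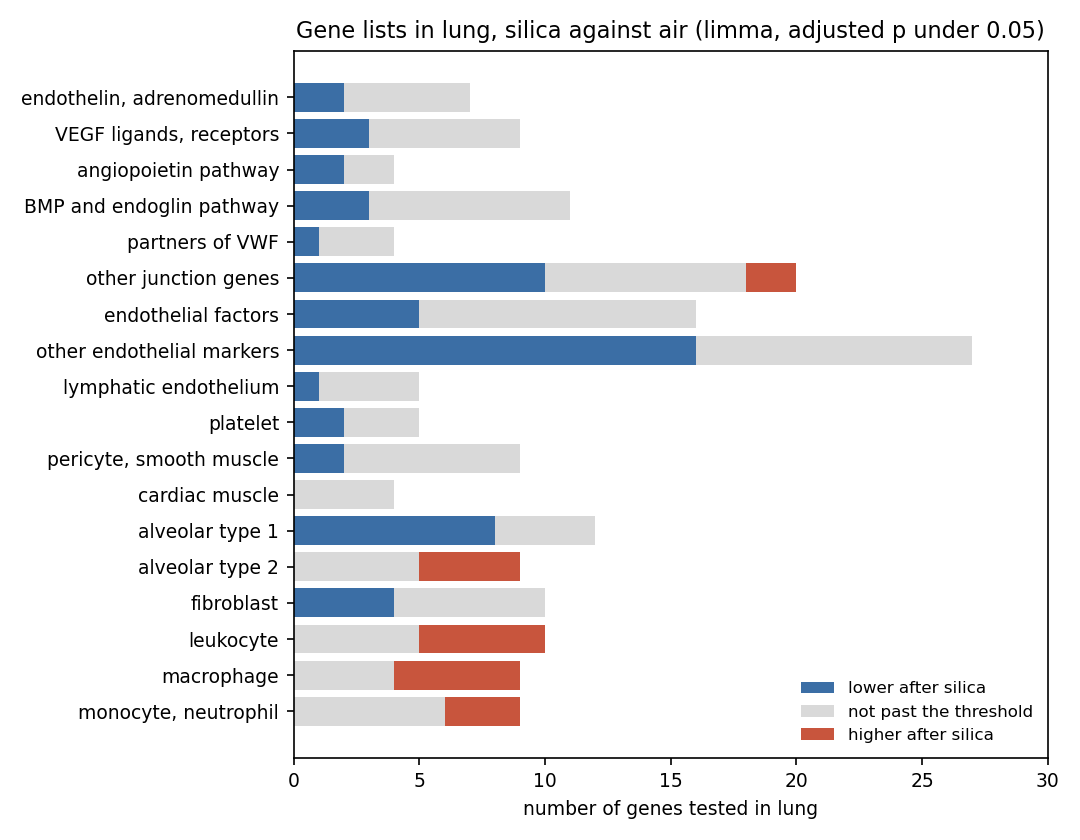
Number of genes tested in lung (horizontal axis) per list, split into lower after silica, not past the threshold and higher after silica, by limma. Other endothelial markers had 16 of 27 lower, whereas the macrophage and leukocyte lists had calls in the higher direction alone.

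In blood, 3 of the 7 genes were detected on enough arrays to be tested, Vwf, Tie1 and Cldn5, and none passed. Across blood, 0% of 7864 probes were called by limma, beside 681 (8.66%) at an unadjusted p under 0.05. Two-sided limma on the authors' deposited values called 7 probes and without background correction 6, none of them a probe of these genes. Ednrb, Tek and Cdh5 were not detected on any of the 12 blood arrays, and Ramp2 was detected in 1 of 6 air rats and 2 of 6 silica rats, at log2 levels of 6.403 to 6.454 after air and 6.397 to 6.443 after silica. Tie1 and Cldn5 were detected in all 12 rats but dim, at mean raw signals of 83.3 and 74.3 after air, where the values are compressed by the background correction. Tie1 gave 6.48 to 6.52 after air and 6.45 to 6.50 after silica (-0.02 ± 0.01, adjusted p 0.636), or -0.21 (95% interval -0.44 to 0.00, adjusted p 0.573) with the background from median signals. Cldn5 gave 6.45 to 6.48 and 6.45 to 6.47 (-0.00 ± 0.01, adjusted p 0.977), or -0.03 (95% interval -0.21 to 0.14) with the other background.

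Vwf was the one gene well above background in blood. It lay between 8.69 and 10.11 (median 9.24) after air and between 8.84 and 9.34 (median 8.95) after silica, so the silica rats lay wholly within the range of the air rats. The difference was -0.29 ± 0.20 (95% interval -0.74 to 0.16, limma adjusted p 0.823), and -0.24 (adjusted p 0.779) without the 3 arrays that stood apart. It was -0.41 without air replicate 5, -0.13 without air replicate 6 and -0.07 with arrays scaled to one median, and did not pass in any of these. An interval of this width includes the change of -0.52 seen in lung. Since platelets also carry Vwf mRNA, platelet genes were read beside it: 6 of the 14 listed were tested in blood, none passed, and their median log2 fold change was -0.22. Their summed signal per rat ran from 27328 to 36101 after air and from 24894 to 31901 after silica. The air rat with the highest Vwf, replicate 6, also had the highest platelet sum, and the silica rat with the highest Vwf, replicate 6, had the lowest. By the mean log2 signal of the 6 platelet genes, air replicate 1 (11.2054) was marginally above air replicate 6 (11.2035). The part of platelets in blood Vwf was not tested.

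**Figure D4:**
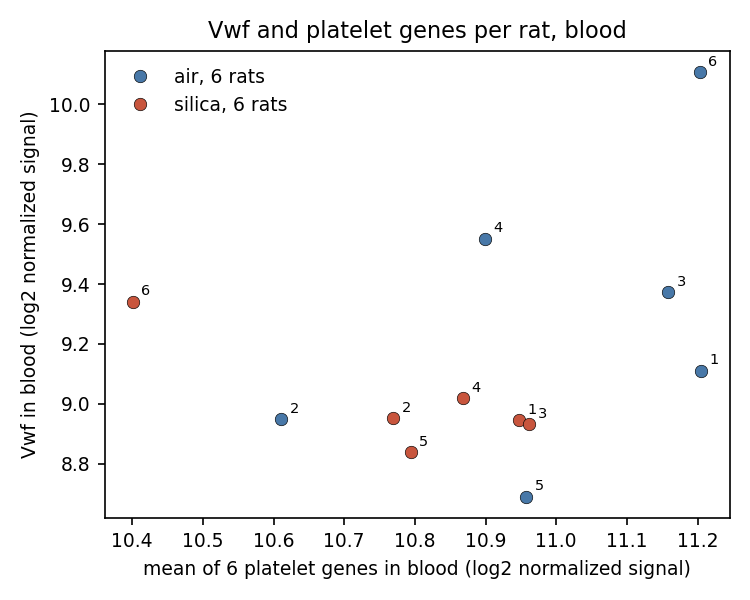
Vwf in blood (vertical axis, log2 normalized signal) against the mean log2 signal of 6 platelet genes (horizontal axis), with 1 point per rat and its replicate number. Air replicate 6 is highest for Vwf at 10.11, and silica replicate 6 has a Vwf of 9.34 at the lowest platelet mean of 10.40.

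The silica effects in lung and blood were set against each other within rats, as the log2 level in lung less that in blood with all 24 arrays normalized together, for the 3 genes measured in both. Tie1 passed narrowly: its silica effect was more negative in lung by 0.21 on the log2 scale (-0.21 ± 0.05, limma adjusted p 0.0460), where 1.41% of 7594 probes were called in that direction and 3.83% in either. With the background from median signals the difference was -0.05 ± 0.12 (adjusted p 0.898), and the call was kept only when air replicate 2 or silica replicate 6 was the rat left out. Vwf (-0.48 ± 0.18, adjusted p 0.192) and Cldn5 (-0.34 ± 0.14, adjusted p 0.252) did not pass. For the other 4 genes the tissues could not be compared in this way.

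In air rats all 7 genes were higher in lung than in blood of the same rat. For Ednrb, Tek, Cdh5 and Ramp2 that direction was set by the detection filter, which they passed through their lung arrays. Of 10662 probes tested 78.5% were called and 41% were higher in lung (4371 higher, 4002 lower), or 7695 higher and 1227 lower when arrays were scaled to one median, which shifted the median of all probes by 0.34. The 7 genes kept their direction there, at 0.49 or more on the log2 scale, with Vwf at 2.81 in place of 1.76, Tie1 at 2.81 in place of 1.63 and Tek at 2.96 in place of 2.01. Folds also depended on the background model where blood was dim, so both are given. Cldn5 was 77.5-fold higher in lung (142-fold with the background from median signals). Ramp2 was 89.5-fold higher (266-fold), a fold against the mean of all 6 blood arrays, of which 1 detected it. Since Ednrb, Tek and Cdh5 were not detected in blood, their folds are bounds, taken against a blood level set, per array, at the dimmest detected probe or at the gene's own value where that was brighter. They were at least 58.5-fold (195-fold) for Ednrb, at least 3.90-fold (15.1-fold) for Tek and at least 1.20-fold (2.59-fold) for Cdh5. Tie1 was 3.09-fold higher in lung (5.35-fold) and Vwf 3.39-fold (3.18-fold). For Vwf, Tie1 and Cldn5, detected on all blood arrays, the limma adjusted p was at most 3.02e-05. No p-value is given for Ednrb, Tek, Cdh5 and Ramp2, whose direction was set by the filter.

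In silica rats the same folds were 2.43 for Vwf (2.29 with the background from median signals), 2.67 for Tie1 (5.17), 61.2 for Cldn5 (116) and 64.9 for Ramp2 (191), which 2 of the 6 blood arrays detected. They were at least 37.2 for Ednrb (127), 2.98 for Tek (11.4) and 1.13 for Cdh5 (2.14). Within each gene the order of the group means thus ran from lung after air through lung after silica to blood. Neighbours tested that did not pass the threshold were lung after air and lung after silica for Cldn5, and the 2 blood groups for Vwf, Tie1 and Cldn5. The lung groups of Cdh5 passed but overlapped. Lung after silica was not tested against blood. For Vwf these overlapped, with lung after silica from 10.55 and blood after air up to 10.71. The blood groups of Ednrb, Ramp2, Tek and Cdh5 were not tested against each other.

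**Figure D5:**
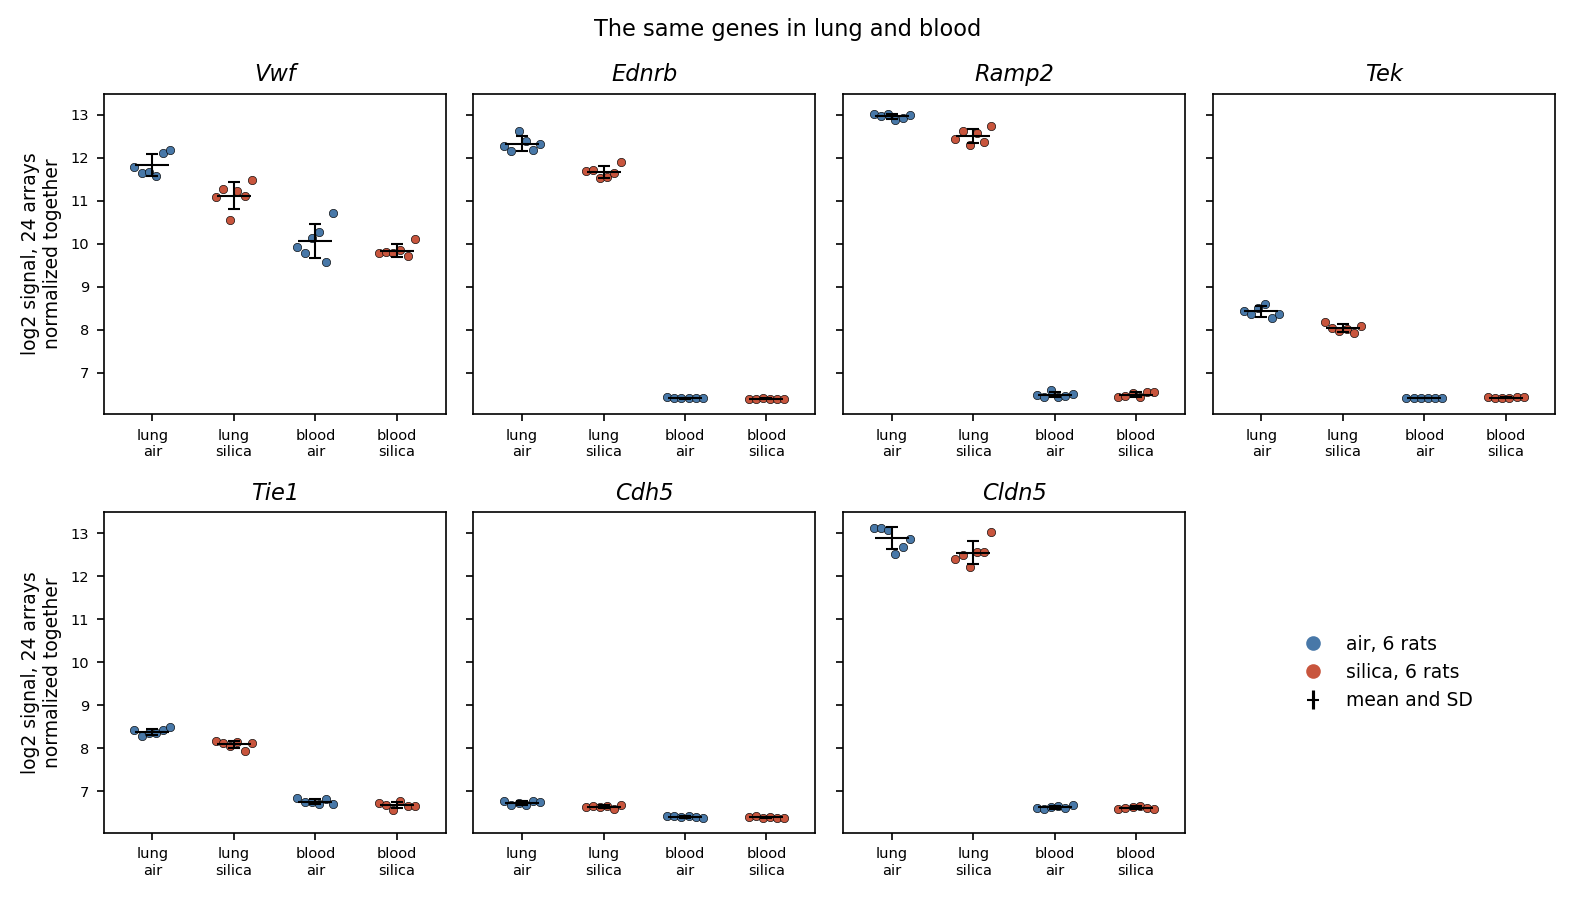
Log2 signal of the 7 genes in lung and blood with all 24 arrays normalized together (vertical axis, shared by all panels), 1 point per rat in 4 groups of 6, with the group mean and SD. Vwf is the gene whose blood values, 9.58 to 10.71 after air, lie far above the floor near 6.4.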

How the data were processed

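Total RNA of lung and blood was labelled with biotin and hybridised to the arrays (per the labels' protocols). Per tissue, the authors deposited a bead-averaged raw intensity per probe and array, not normalized, a bead standard error on the same intensity scale, a bead number and a detection p-value. They also deposited normalized values, on a log2 scale for blood and as a score close to log2 at high signal for lung, used as an alternative. BeadStudio, limma and lumi are named without versions, per the submitters' processing notes.

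With R 4.3.3 and limma 3.58.1, neqc corrected background (controls inferred from detection p), added an offset of 16, quantile normalized each tissue and took log2. The test, two-sided and without covariates, was limma's lmFit with eBayes, over probes detected (p under 0.05) on 6 or more of the 12 arrays. P-values were adjusted over all probes tested at a threshold of 0.05. Lung minus blood values were taken per rat after neqc of all 24 arrays. The steps were tested on simulated data. Dim values are compressed with the inferred background (floor 6.37 in lung). There were 84 lung and 36 blood probes with a signal above 150 and a detection p above 0.01 on at least 6 arrays. Their part in the inferred background was not tested. The added alternative takes the background from median signals (floor 4.13).

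Where a gene of the 18 lists had several tested probes, the brightest on average stood for it. Of 237 list genes, 187 matched by symbol and 16 by RefSeq synonym. Named were all probes of the chosen genes, up to 4 genes per list with the largest change past the threshold (otherwise the 2 most abundant), with counterparts of the receptors named beside them after their values were seen, and the 5 probes most like the mean. The genes and lists were chosen with earlier results of these data known. Alternatives are given in the closing section. The labels do not say how rats were housed in relation to exposure, and p-values cover the spread between these rats.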

Additional observations from a re-analysis of the deposited data

Results flagged for a closer look

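In blood after silica, Vwf of replicate 6 (9.34) lay far from the other 5 rats, the next of which was at 9.02: its gap made up 0.64 of the range of the group, above Dixon's 95% critical value for 6 samples. It was 1 of 20 groups of 6 tested, and chance flags about 1 in 20. This array is also 1 of the 3 that stood apart in blood.

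The silica effect on Tie1 was more negative in lung than in blood (-0.21 on the log2 scale) by a test of the difference itself, with a limma adjusted p of 0.0460. Over the 12 fits that left out 1 rat, that adjusted p ran from 0.0376 to 0.0964. Tie1 was dim in blood, and with the background from median signals the difference was -0.05 (limma adjusted p 0.898).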

How the results depend on the processing

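All 7 genes stayed lower after silica in lung under every alternative run, with 6 or 7 past the threshold when 1 rat at a time was left out, and 5 with arrays scaled to one median or with the replicate block. Of 361 values of the 7 genes under alternatives, 343 kept their direction and their side of the threshold. One reversed: Cldn5 in blood was 0.00466 under median scaling. Probes called in lung fell from 1820 to 537 under median scaling and to 1133 with the replicate number as a block, and were 1354 to 1970 with 1 rat left out. Same-numbered rats had correlated deviations above 0.1 in 2 of 6 pairs in lung (-0.29 to 0.18) and 4 of 6 in blood (-0.46 to 0.62), not in every pair, so the numbers were not taken to pair the rats. In blood, 0 calls became 6 without background correction, 4 with the background from median signals, 5 with the replicate block, 7 with the authors' deposited values, 2 without the 3 arrays that stood apart and 0 to 18 with 1 rat left out; those of the 7 genes tested there, 3 or 2, had 0 in each. For the difference between tissues, 291 calls became 49 under median scaling, 507 with no filter on detection, 510 with each tissue normalized alone, and 198 to 450 with 1 rat left out, the highest without silica replicate 6. Of the 3 genes tested there, 1 was called, and 0 without background correction (Tie1 -0.11, adjusted p 0.630), under median scaling (-0.30, adjusted p 0.156), with detection p under 0.01 on every array of a group (-0.21, adjusted p 0.0857), or with the background from median signals; with 1 rat left out it was 0 to 1. The causes were not tested, except that the filters change the number of probes tested. A block by slide was not run, since no slide is given in the sources used here. Signal over background limits Cdh5 in lung, and Tie1, Cldn5 and Ramp2 in blood.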
